A study of Mus musculus with 50 samples.

Results

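The costimulatory and checkpoint ligands of antigen-presenting cells were described here as 9 genes of 53700 in the count tables, matched by symbol: *Cd40*, *Tnfrsf9*, *Tnfsf9*, *Cd80*, *Cd86*, *Icosl*, *Cd83*, *Cd274* and *Pdcd1lg2*. All 9 symbols were found once in the tables, and 8 of them passed the filter on low counts. The mRNA of microglia sorted from the hippocampus of male C57BL/6J mice was sequenced, 1 library per mouse, in 50 mice. The study asked how early-life stress (ELS), given as limited bedding and nesting material from postnatal day (P) 2 to P9, alters microglia directly after the stress, in adulthood, and in response to an adult immune challenge. Mice reared under standard conditions served as controls (CTR). The P9-CTR group held 12 mice and the P9-ELS group 13, all killed at P9 without injection. At P200, mice received 1 intraperitoneal injection of PBS or of lipopolysaccharide (LPS, a bacterial cell wall component) at 1 mg/kg and were killed 3 h later. These groups were P200-CTR-PBS (7 mice), P200-CTR-LPS (7), P200-ELS-PBS (6) and P200-ELS-LPS (5). Sorting kept CD11b+ cells with intermediate CD45; only the adult brains went through a Percoll gradient, so that age and tissue preparation cannot be told apart. Each mouse is named by its label, in which the number before the point is read here as a nest number.

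Antigen-presenting cells give T cells a second signal next to the antigen itself. CD80 and CD86 bind CD28 (activating) or CTLA-4 (inhibitory) on T cells, ICOS ligand binds ICOS, and 4-1BB ligand (*Tnfsf9*) binds the receptor 4-1BB (*Tnfrsf9*), whereas PD-L1 (*Cd274*) and PD-L2 (*Pdcd1lg2*) bind the inhibitory receptor PD-1. CD40 is the receptor through which T cell CD40 ligand activates the presenting cell, and CD83 keeps CD86 and MHC class II molecules at the cell surface; on resting microglia many of these molecules are known to be low and to change with activation.

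Total counts ran from 5152838 to 42231258 per mouse, and levels are given below as CPM, counts scaled to a common library total after TMM normalisation. All 10 microglia markers were detected in every group, with a summed level of at least 37073 CPM in each mouse. Of the marker lists of other cell types, several moved with LPS. The dendritic cell sum was 7.84 to 25.4 CPM in P200-CTR-PBS and 7.51 to 49.2 CPM in P200-CTR-LPS. It was 7.98 to 17.126 CPM in P200-ELS-PBS and 12.055 to 117.33 CPM in P200-ELS-LPS. Of the 6 tested genes of this list, 2 were higher after LPS in both conditions. These were *Ccr7*, a chemokine receptor, at 15.5 ± 8.70 CPM in P200-CTR-LPS (SD, n = 7), and *Zbtb46*, a transcription factor, at 9.82 ± 6.63 CPM, while *Clec9a*, *Xcr1*, *Flt3*, *Cd209a* and *Clec10a* had means of at most 1.04 CPM in both LPS groups. The remaining marker, *Itgae*, an integrin, was not called and had 8.88 ± 5.44 CPM in P200-CTR-PBS (SD, n = 7) and 4.71 ± 2.87 CPM in P200-CTR-LPS (SD, n = 7). Between P200-CTR-PBS and P200-CTR-LPS the astrocyte sum went from 301 to 503 CPM to 485 to 618 CPM (0 of 6 tested genes called), the endothelial sum from 39.4 to 71.1 CPM to 60.9 to 93.6 CPM (2 of 6 higher), and the T cell sum from 0 to 0.278 CPM to 0.801 to 2.24 CPM (1 of 2 higher). Between P200-ELS-PBS and P200-ELS-LPS the astrocyte sum went from 316 to 456 CPM to 423 to 586 CPM (2 of 6 higher), the endothelial sum from 30.3 to 73.7 CPM to 45.1 to 99.7 CPM (0 of 6 called by edgeR) and the T cell sum from 0 to 2.28 CPM to 0.295 to 3.57 CPM (0 of 2 called by edgeR). Of the 3 tested monocyte markers 0 were called after LPS in CTR and 1 was higher in ELS, and of the 7 of border-associated macrophages 1 was higher in CTR and 0 in ELS. The part of other cells in the results was not tested, and in bulk libraries fewer cells of a type and less RNA per cell cannot be told apart. The library of mouse P200_1.1_CTR_PBS stood apart, with 12854 genes detected against at least 16485 in the other adult mice, as did P9_19.3_ELS (12482 genes) and P9_19.2_ELS (15731 genes). Leaving out these 3 mice kept the number of the 9 genes called in each of the 9 comparisons.

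*Cd83* and *Cd86* were the best expressed of the 9 genes at rest, and *Pdcd1lg2* and *Tnfrsf9* were close to absent. Per kilobase of exon, *Cd86* stood at 207 ± 44.3 CPM per kb in P200-CTR-PBS (SD, n = 7) and ranked 126 of 16588 genes, and *Cd83* at 182 ± 31.6 CPM per kb ranked 146. *Icosl* followed at 20.13 ± 3.68 CPM per kb and *Cd80* at 9.78 ± 1.11 CPM per kb. *Tnfsf9* (3.05 ± 1.40 CPM per kb) and *Cd274* (3.03 ± 1.63 CPM per kb) differed by less than their spread, *Cd40* had 0.154 ± 0.201 CPM per kb, and *Tnfrsf9* had 0.0274 ± 0.0376 CPM per kb. After LPS the order changed: *Cd83* reached 2722 ± 1007 CPM per kb in P200-CTR-LPS and ranked 10 of 16588 genes, and *Tnfsf9* reached 253 ± 140 CPM per kb, level with *Cd86* at 243 ± 31.4 CPM per kb.

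**Figure D1:**
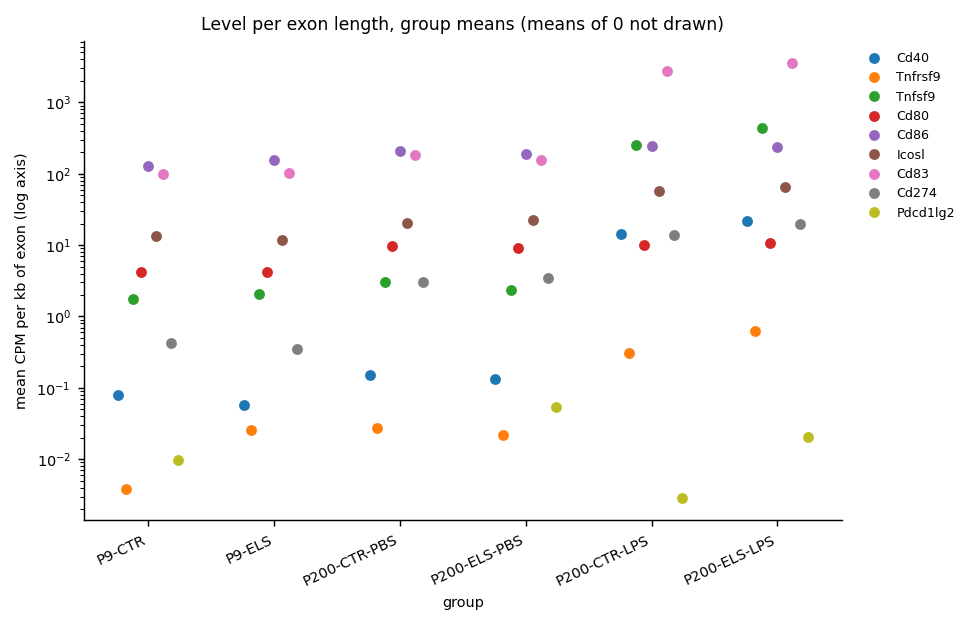
Mean level of each of the 9 genes in the 6 groups, in CPM per kb of exon on a log axis, with 1 point per gene and group and means of 0 not drawn (5 to 13 mice each). *Cd86* and *Cd83* lie highest without LPS, and after LPS *Cd83* lies highest at 2722 CPM per kb in CTR while *Tnfsf9* reaches the level of *Cd86*.

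The RefSeq promoter table (build GRCm38.p6) held 5 of the 9 genes, *Cd80*, *Cd274*, *Icosl*, *Tnfrsf9* and *Pdcd1lg2*. *Cd274*, *Icosl* and *Tnfrsf9* are shown because they were higher after LPS, and *Cd80* because it differed little between PBS and LPS. Each sequence is the 250 bases before the annotated start, 5′ to 3′ on the plus strand, and capitals mark matches to any of 5 motifs searched on both strands: the NF-κB consensus, the interferon-stimulated response element (ISRE), the STAT element TTCNNNGAA, the AP-1 element TGANTCA and the TATA box TATAAA.
Cd274, chr19:29367188-29367437: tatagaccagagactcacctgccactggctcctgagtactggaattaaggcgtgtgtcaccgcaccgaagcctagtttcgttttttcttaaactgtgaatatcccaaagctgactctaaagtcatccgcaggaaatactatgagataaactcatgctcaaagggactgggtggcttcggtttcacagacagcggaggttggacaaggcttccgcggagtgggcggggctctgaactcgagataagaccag
Icosl, chr10:78069118-78069367: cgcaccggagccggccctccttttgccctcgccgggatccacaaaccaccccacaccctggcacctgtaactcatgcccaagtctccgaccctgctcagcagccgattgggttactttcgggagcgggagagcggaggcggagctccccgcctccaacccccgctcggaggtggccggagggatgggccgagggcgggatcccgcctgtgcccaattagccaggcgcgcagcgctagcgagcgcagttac
Tnfrsf9, chr4:150927749-150927998: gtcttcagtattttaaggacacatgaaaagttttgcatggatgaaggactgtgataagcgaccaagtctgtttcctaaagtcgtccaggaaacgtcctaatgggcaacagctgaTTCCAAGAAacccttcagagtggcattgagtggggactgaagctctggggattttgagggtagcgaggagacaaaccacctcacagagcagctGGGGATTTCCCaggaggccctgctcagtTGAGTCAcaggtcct
Cd80, chr16:38458683-38458932: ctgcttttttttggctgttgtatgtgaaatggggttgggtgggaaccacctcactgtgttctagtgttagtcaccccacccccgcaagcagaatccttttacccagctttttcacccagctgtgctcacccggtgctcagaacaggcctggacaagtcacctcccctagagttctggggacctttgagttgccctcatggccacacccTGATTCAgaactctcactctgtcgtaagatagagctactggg

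The start of *Tnfrsf9* shown held a pair of overlapping NF-κB consensus matches beginning 43 and 42 bases before the start, GGGGATTTCC and GGGATTTCCC. It also held the STAT element TTCCAAGAA at 136 bases and the AP-1 element TGAGTCA at 15 bases. The NF-κB consensus was present in 3.9% of the 32851 promoters of this length, the STAT element in 7.02%, the AP-1 element in 6.75%, the ISRE in 2.98% and the TATA box in 12.4%. Neither *Cd274* nor *Icosl* held any of the 5 motifs in its window, the upstream *Tnfrsf9* start in the table held none, and *Cd80* held a single AP-1 match, TGATTCA, at 42 bases. *Pdcd1lg2*, not shown, held 1 NF-κB match at 244 bases. These letters describe the window only.

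In the GENCODE M39 annotation of GRCm39, *Cd40* lies at chr2:164897544-164914868, *Tnfrsf9* at chr4:150999019-151030559, *Icosl* at chr10:77905136-77919747, *Cd83* at chr13:43938251-43956634 and *Tnfsf9* at chr17:57412298-57414769, all on the plus strand. *Cd80* (chr16:38275923-38316697, plus strand) and *Cd86* (chr16:36424044-36486443, minus strand) share chromosome 16, and *Cd274* (chr19:29344529-29365495) and *Pdcd1lg2* (chr19:29388319-29448882) are neighbours on the plus strand of chromosome 19.

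The adult LPS challenge asked which of these genes microglia raise within hours. Of the 8 tested genes, 7 also passed the filter on low counts without the LPS mice, and 5 of these 7 were higher after LPS in CTR mice (*Cd40*, *Tnfsf9*, *Icosl*, *Cd83* and *Cd274*), against 6.02% of all 16696 genes tested, and none was lower. In ELS mice the same 5 genes were higher, against a background of 4.69%. *Tnfrsf9* was called in both conditions too, but it was tested only through the LPS mice, where it is high, and is left out of these counts; its CTR call was lost under several alternatives given with its values. A gene was called where the edgeR quasi-likelihood test gave an adjusted p under 0.05 and the log2 fold change passed 1 in size. *Cd80* and *Cd86*, the CD28 ligands, were not called in either condition. The LPS mice shared no overlap with the PBS mice for 5 of the 9 genes in CTR and for 4 in ELS, against 4.92% and 5.65% of all tested genes that were higher without overlap. The median log2 fold change of the 7 genes was 2.18 in CTR and 2.55 in ELS, and that of all tested genes was 0.00 and -0.04.

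*Cd40*, the receptor for T cell help, had 0 to 1.75 CPM in P200-CTR-PBS (median 0.0713) and 8.44 to 84.0 CPM in P200-CTR-LPS (median 55.7). In P200-ELS-PBS it had 0 to 0.818 CPM (median 0.574), and the 5 P200-ELS-LPS mice had 15.3, 20.22, 55.33, 71.5 and 212 CPM. Every LPS mouse lay above every PBS mouse in both conditions, P200_20.1_ELS_LPS was highest, and P200_5.3_CTR_LPS was the lowest of the LPS mice. LPS raised *Cd40* by a log2 fold change of 6.47 (SE 0.94, edgeR adjusted p = 4.77e-07) in CTR and 7.26 (SE 1.05, edgeR adjusted p = 5.87e-07) in ELS.

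*Tnfsf9*, the ligand of 4-1BB, had 1.09 to 6.97 CPM in P200-CTR-PBS (median 3.81) and 104 to 534 CPM in P200-CTR-LPS (median 319). P200-ELS-PBS mice had 1.63 to 5.51 CPM (median 2.501), and P200-ELS-LPS mice 108, 118, 495, 655 and 1540 CPM. The groups were far apart, and the lowest LPS mouse had more than the highest PBS mouse in both conditions. For *Tnfsf9* the log2 fold change was 6.38 (SE 0.50, edgeR adjusted p = 1.46e-14) in CTR and 7.55 (SE 0.58, edgeR adjusted p = 5.97e-15) in ELS. Exons of *Gm11110*, annotated on the opposite strand, overlap those of *Tnfsf9*, and this gene moved in the same way, at 0.798 ± 0.397 CPM in P200-CTR-PBS and 58.4 ± 31.9 CPM in P200-CTR-LPS (SD, n = 7 each). The strand setting of the counting is not given in the sources used here, so that reads of the pair cannot be told apart.

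*Tnfrsf9*, the receptor 4-1BB itself, stayed at trace level and passed the filter only through 6 LPS mice, so that its difference is partly set by the filter. It had 10 reads over the 7 P200-CTR-PBS mice and 134 over the 7 P200-CTR-LPS mice, that is 0 to 0.275 CPM (median 0.0341) and 0 to 1.44 CPM (median 0.933). The groups overlapped, because P200_5.3_CTR_LPS and P200_18.3_CTR_LPS had no read. In ELS it had 0 to 0.207 CPM after PBS (median 0.0240), and 0.124, 0.878, 2.25, 2.51 and 2.67 CPM after LPS. Its log2 fold change was 3.42 (SE 1.12, edgeR adjusted p = 0.0297) in CTR and 4.71 (SE 1.29, edgeR adjusted p = 0.00895) in ELS. The CTR call was lost when any 1 of 6 mice was left out (P200_1.1_CTR_PBS, P200_5.1_CTR_PBS, P200_5.2_CTR_PBS, P200_18.2_CTR_PBS, P200_8.2_CTR_LPS or P200_15.2_CTR_LPS, edgeR adjusted p = 0.0507 to 0.0593), without the filter on low counts (edgeR adjusted p = 0.0589), with the 2 groups compared alone (edgeR adjusted p = 0.0663) and with the nest number as a block (2.86, SE 1.73, edgeR adjusted p = 0.343).

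*Cd83*, which stabilises CD86 and MHC class II at the surface, changed from 436 to 653 CPM in P200-CTR-PBS (median 609) to 3080 to 11578 CPM in P200-CTR-LPS (median 8925). In ELS the PBS mice had 237 to 714 CPM (median 446) and the LPS mice 4993, 5267, 11254, 13607 and 20036 CPM. The lowest LPS mouse exceeded the highest PBS mouse by several-fold in both conditions. *Cd83* rose by a log2 fold change of 3.90 (SE 0.26, edgeR adjusted p = 5.42e-17) in CTR and 4.54 (SE 0.30, edgeR adjusted p = 1.85e-17) in ELS.

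*Icosl* gave the smallest change of those called. It had 76.2 to 125 CPM in P200-CTR-PBS (median 86.8) and 150 to 408 CPM in P200-CTR-LPS (median 247). After PBS, ELS mice had 79.9 to 121 CPM (median 107), and after LPS 125, 201, 310, 389 and 504 CPM. No mouse overlapped, although P200_11.2_ELS_LPS, at 125 CPM, lay close to the highest ELS-PBS mouse. In log2 terms the change was 1.52 (SE 0.28, edgeR adjusted p = 4.83e-05) in CTR and 1.54 (SE 0.31, edgeR adjusted p = 0.000305) in ELS.

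*Cd274*, which encodes the inhibitory ligand PD-L1, had 0 to 21.9 CPM in P200-CTR-PBS (median 12.3) and 35.1 to 84.9 CPM in P200-CTR-LPS (median 61.4). The value of 0 belonged to P200_1.1_CTR_PBS, and the other 6 CTR-PBS mice had at least 11.3 CPM. ELS mice had 9.82 to 17.104 CPM after PBS (median 14.6) and 13.0, 49.7, 74.4, 101 and 169 CPM after LPS, so that P200_11.2_ELS_LPS lay within the PBS range and the other 4 above it. The log2 fold change was 2.18 (SE 0.62, edgeR adjusted p = 0.0104) in CTR and 2.55 (SE 0.69, edgeR adjusted p = 0.00845) in ELS. Without P200_20.1_ELS_LPS the ELS value was 2.098 and no longer called (edgeR adjusted p = 0.0508). Exons of *Gm36043* and *Plgrkt* on the opposite strand overlap those of *Cd274*. *Gm36043* went from 3.46 ± 1.79 to 13.6 ± 3.60 CPM and *Plgrkt* from 61.8 ± 19.7 to 51.6 ± 7.08 CPM between P200-CTR-PBS and P200-CTR-LPS (SD, n = 7 each).

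The CD28 ligands were not called. *Cd86* had 682 to 1177 CPM in P200-CTR-PBS (median 747) and 805 to 1090 CPM in P200-CTR-LPS (median 952), and the groups overlapped only through P200_1.1_CTR_PBS, since the other 6 PBS mice had at most 772 CPM. In ELS it had 573 to 889 CPM after PBS (median 705), and 692, 904, 916, 974 and 1028 CPM after LPS, again with overlap. Its log2 fold change was 0.23 (95% interval -0.14 to 0.61, edgeR adjusted p = 0.488) in CTR and 0.32 (95% interval -0.10 to 0.74, edgeR adjusted p = 0.384) in ELS. The alternative fits by edgeR, DESeq2 and limma-voom gave *Cd86* 0.20 to 0.35 in CTR (adjusted p = 0.00704 to 0.526). In ELS they gave 0.32 to 0.39 (adjusted p = 0.0249 to 0.385). The adjusted p of a small *Cd86* rise thus depended on the fit, while its size stayed under 1. *Cd80* had 35.7 to 48.1 CPM after PBS (median 38.4) and 35.6 to 50.3 CPM after LPS (median 42.3) in CTR, ranges that nearly coincided. ELS mice had 26.7 to 52.7 CPM after PBS (median 34.6) and 31.7, 32.0, 36.6, 49.5 and 69.6 CPM after LPS. Its log2 fold change was 0.03 (95% interval -0.38 to 0.43, edgeR adjusted p = 0.969) in CTR and 0.24 (95% interval -0.21 to 0.70, edgeR adjusted p = 0.576) in ELS. All 4 intervals end below 1, the size the call required.

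*Pdcd1lg2*, which encodes PD-L2 and lies 22823 bases beyond *Cd274* on chromosome 19 (GRCm39), was not tested with the others because no mouse reached 1 CPM. Reads were found in 6 of 50 mice, with at most 15 in 1 library (P200_17.1_ELS_PBS, 0.603 CPM). The group means ran from 0 in P9-ELS and P200-CTR-PBS to 0.124 ± 0.241 CPM in P200-ELS-PBS (SD, n = 6). Over 7 comparisons of group means, permutation tests (two-sided, exact where a group had fewer than 10 mice) gave adjusted p-values of 0.897 to 1. By these tests no difference was detectable for this gene at this depth. Without the filter on low counts, it was called for P200 versus P9 in ELS (log2 fold change 4.49, edgeR adjusted p = 0.00215). That value rests on 19 reads in 2 P200-ELS-PBS mice, and P9-ELS mice had none.

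**Figure D2:**
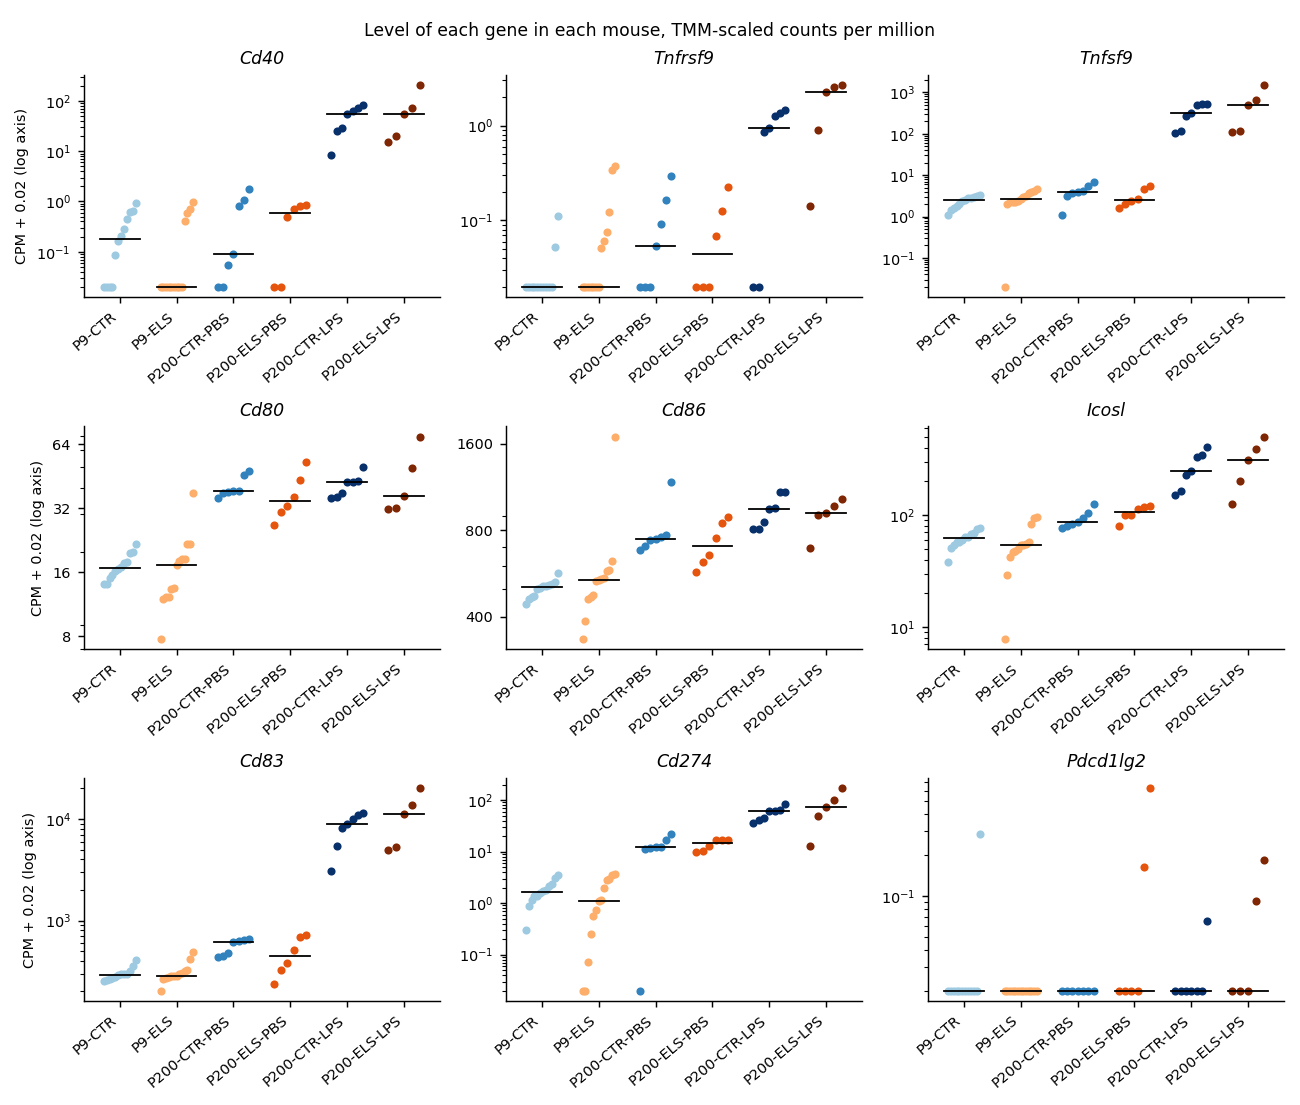
Level of each of the 9 genes in each mouse, in TMM-scaled CPM plus 0.02 on a log axis, by group, where points are mice and black lines are group medians. For *Cd40*, *Tnfsf9* and *Cd83* every LPS mouse lies above every PBS mouse, the PBS and LPS groups overlap for *Cd80*, and *Pdcd1lg2* has reads in 6 of 50 mice.

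Among the genes around these molecules, 8 of 14 of CD40 and 4-1BB signalling were higher after LPS in CTR, against 6.02% of all tested genes. In ELS 8 of 14 were higher, against 4.69%, and none was lower in either condition. In CTR the largest changes were those of *Nfkbia*, the inhibitor that NF-κB itself induces, with a log2 fold change of 3.56 (SE 0.19), of *Relb* (3.52, SE 0.49) and *Nfkb2* (2.96, SE 0.43), the subunits of the non-canonical NF-κB pathway, and of *Birc3*, a ubiquitin ligase of the same receptor complexes (2.64, SE 0.26). *Nfkb2* had 27.2 to 296 CPM in P200-CTR-LPS (median 36.7), and its value was 2.37 without P200_8.2_CTR_LPS. The median log2 fold change of the 14 genes was 1.39 in CTR and 1.16 in ELS, beside 0.00 and -0.04 for all tested genes. These counts and medians include *Traf1*, which was tested only through the LPS mice, so that they are partly set by the filter. This list was not recounted without *Traf1*. The highest values of *Traf1* without LPS were 1.87 and 0.96 CPM in P200-CTR-PBS, 0.68 CPM in P9-ELS and 0.62 CPM in P9-CTR. Of the genes of interferon input and PD-L1 stability, 2 of 9 were higher in either condition, the transcription factors *Irf1* (2.51 in CTR, SE 0.24) and *Stat3* (2.00 in CTR, SE 0.23).

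Other ligands of the B7 family and its relatives gave 2 higher and 1 lower of 9 tested in either condition. Of all 16696 tested genes, 1005 were higher and 601 lower after LPS in CTR, and 783 higher and 530 lower in ELS. All list counts after LPS stand beside this background. *Pvr* and *Nectin2*, which bind the T cell receptors CD226 and TIGIT, rose by log2 fold changes of 2.61 (SE 0.23) and 1.98 (SE 0.29) in CTR, and *Btla*, an inhibitory receptor, was lower, with 154 reads over the 7 P200-CTR-PBS mice and 8 over the 7 P200-CTR-LPS mice. The *Btla* call in CTR held in 18 of 25 fits that each left out 1 mouse; the value was -3.76 (SE 1.24) with all mice and -6.18 without P200_1.2_CTR_LPS. Of the other costimulatory TNF superfamily ligands and receptors, 0 of 8 tested genes were called after LPS in either condition by edgeR. Of the genes for surface turnover of CD86, *Cd74*, the invariant chain of MHC class II, was higher (2.15 in CTR, SE 0.32), 1 of 6 tested. For reference, 5 of the 6 LPS response genes that passed the filter also without the LPS mice were higher in CTR and in ELS, with *Cxcl10* at 7.89 (SE 0.73), *Il1b* at 7.80 (SE 0.71) and *Tnf* at 6.504 (SE 0.60) on the log2 scale in CTR. *Acod1* and *Lcn2* were tested only through the LPS mice. *Lcn2* had no read in the 7 P200-CTR-PBS mice and 24 reads over the 7 P200-CTR-LPS mice (at most 0.445 CPM), and its CTR call was lost without P200_1.3_CTR_LPS (edgeR adjusted p = 0.0768). Immediate early genes, which respond to cell handling as well as to stimuli, also moved with LPS: 8 of 10 were higher in CTR and 7 of 10 in ELS, with *Dusp1* (7.16, SE 0.59), *Fos* (6.48, SE 0.74), *Egr1* (5.51, SE 0.46) and *Ier2* (5.19, SE 0.41) leading in CTR, and their part in the results was not tested. Without P200_5.2_CTR_PBS the values of *Cxcl10* and *Dusp1* were 8.61 and 7.85.

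The LPS mice differed widely among themselves, and the genes that were higher after LPS differed together. Over the 12 LPS mice, as deviations from the mean of each condition, all 10 pairs among *Cd40*, *Tnfsf9*, *Cd83*, *Cd274* and *Icosl* had Pearson's r of 0.767 to 0.962 (permutation test within conditions, adjusted p = 0.00132 to 0.0112 over 44 relations). Spearman's rho was 0.672 to 0.942, with 9 of 10 pairs passing (permutation adjusted p = 0.0022 to 0.0823). With the 2 mice farthest from the median of the first gene left out, r was 0.772 to 0.989, and within the 7 P200-CTR-LPS mice alone r was 0.720 to 0.936. *Cd40* and *Cd83* gave the highest r, 0.962. Whether other genes raised by LPS vary together to the same degree was not tested.

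The same 5 genes and *Tnfrsf9* followed the mean level of the 8 LPS response genes, with r of 0.789 to 0.941 (permutation adjusted p = 0.00132 to 0.0213) and rho of 0.688 to 0.933 (permutation adjusted p = 0.0022 to 0.0295), and with r of 0.747 to 0.899 without the 2 farthest mice. *Tnfrsf9* followed the other 5 genes less closely, with r of 0.550 to 0.740 and 2 of 5 pairs passing. The 13 pairs with *Cd80* or *Cd86* gave r of 0.241 to 0.639 (permutation adjusted p = 0.0813 to 0.548), and none passed. With the total count of the library, the 8 genes gave r of -0.06 to 0.489, of which none passed (permutation adjusted p = 0.227 to 0.872). P200_20.1_ELS_LPS had the highest level of 7 of the 8 tested genes, all but *Cd86*. P200_11.2_ELS_LPS was lowest for *Cd274*, *Icosl*, *Cd80* and *Cd86*, and P200_5.3_CTR_LPS for *Cd40*, *Cd83* and, with no read like P200_18.3_CTR_LPS, *Tnfrsf9*.

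**Figure D3:**
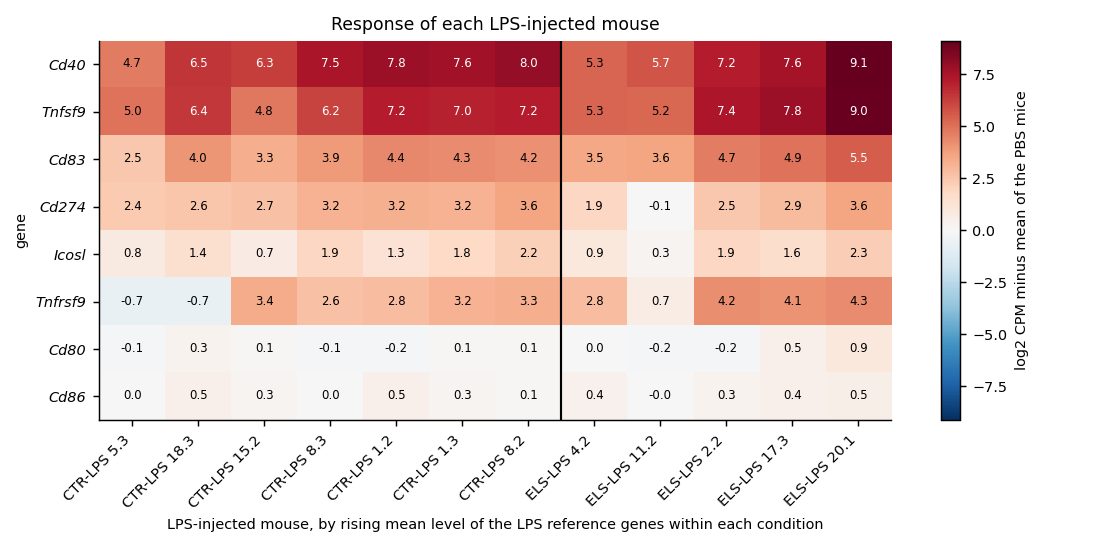
Log2 CPM of each tested gene in each of the 12 LPS-injected mice minus the mean of the PBS mice of the same condition (colour scale and printed values), with mice ordered within CTR and ELS by the mean level of the LPS response genes. Values run up to 9.12 for *Cd40* in P200_20.1_ELS_LPS, whereas *Cd80* and *Cd86* stay between -0.19 and 0.94.

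Early-life stress gave no detectable difference in how these genes responded to LPS. In the test of the difference between the LPS effects of ELS and CTR, 0 of 8 genes were called, against 0% of all tested genes by edgeR, of which 980 had an unadjusted p under 0.05. None of the 8 genes had an unadjusted p under 0.05. The lowest unadjusted p was that of *Tnfsf9*, with a difference of log2 fold changes of 1.17 (95% interval -0.05 to 2.38, edgeR adjusted p = 0.879), followed by *Cd83* with 0.64 (95% interval -0.05 to 1.33, edgeR adjusted p = 0.881). Without P200_20.1_ELS_LPS these were 0.41 and 0.31. For *Icosl* and *Cd86* the differences were 0.01 (95% interval -0.80 to 0.83) and 0.09 (95% interval -0.48 to 0.65). By DESeq2 and the edgeR likelihood-ratio test, 11 and 66 genes of all tested were called in this comparison, with 0 of the 8 genes in either.

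**Figure D4:**
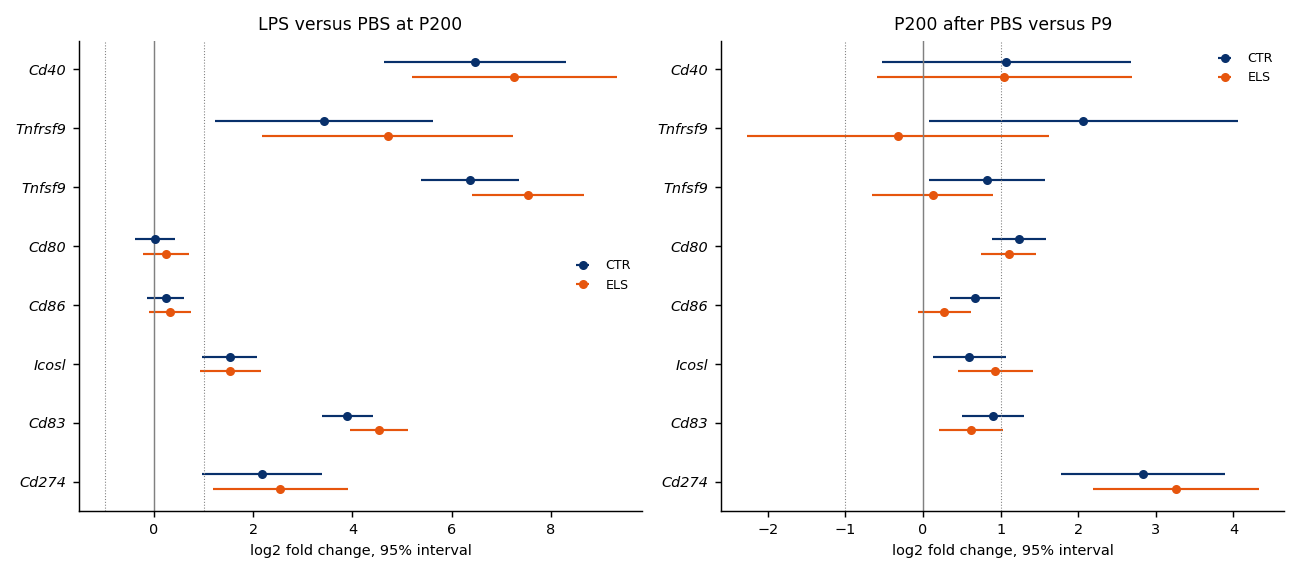
Log2 fold changes of the 8 tested genes with 95% intervals, for LPS versus PBS at P200 (left) and for P200 after PBS versus P9 (right), in CTR (blue) and ELS (orange); dotted lines mark a log2 fold change of 1 in size. On the left, 6 genes lie to the right in both conditions while *Cd80* and *Cd86* lie near 0, and on the right *Cd274* lies farthest out, at 2.83 in CTR and 3.26 in ELS.

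Between P9 and adulthood *Cd274* and *Cd80* were the genes called, each past both the adjusted p and the fold change threshold. This comparison used the PBS-injected adults, which are also the reference of the LPS comparison, so that the sets of values are not independent. Both were higher at P200 in CTR, 2 of 8 tested genes against 7.98% of all tested genes, and the same pair was higher in ELS, against 8.68%. Of the 9 genes, 3 did not overlap between P200-CTR-PBS and P9-CTR (*Cd80*, *Cd86* and *Cd83*, against 6.56% of all tested genes) and 1 between P200-ELS-PBS and P9-ELS (*Cd274*, against 4.6%). The median log2 fold change of the 8 genes was 0.99 in CTR and 0.77 in ELS, beside -0.09 and -0.01 for all tested genes. The 8 genes include *Tnfrsf9*, which passed the filter only through LPS mice, none of them in this comparison. Its values were 2.07 in CTR and -0.32 in ELS, at trace level, and they enter both medians.

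*Cd274* had 0.284 to 3.44 CPM in P9-CTR (median 1.64) and 0 to 3.68 CPM in P9-ELS (median 1.095). All adult PBS mice but P200_1.1_CTR_PBS lay above all P9 mice, at 9.82 CPM or more. *Cd274* was higher at P200 by a log2 fold change of 2.83 (SE 0.54, edgeR adjusted p = 2.46e-05) in CTR and 3.26 (SE 0.55, edgeR adjusted p = 2.79e-06) in ELS. With the nest number as a random effect in limma-voom, the CTR value was 2.04 and not called (limma adjusted p = 0.0996). That fit changed both the method and the nest term, so that their parts in the lost call cannot be told apart.

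*Cd80*, whose level did not separate PBS from LPS mice, had 14.0 to 21.8 CPM in P9-CTR (median 16.7) against 35.7 to 48.1 CPM in P200-CTR-PBS (median 38.4), with no overlap. In ELS the P9 range was wider, 7.77 to 37.9 CPM (median 17.4), and overlapped the adult range of 26.7 to 52.7 CPM (median 34.6) through P9_19.2_ELS. For *Cd80* the log2 fold change was 1.24 (SE 0.18, edgeR adjusted p = 1.32e-07) in CTR and 1.102 (SE 0.18, edgeR adjusted p = 2.57e-06) in ELS. Without P200_20.2_ELS_PBS the ELS value was 0.98, under the required size but with an edgeR adjusted p = 5.28e-05. *Timmdc1*, whose exons overlap those of *Cd80* on the opposite strand, had 5.23 ± 1.09 CPM in P9-CTR (SD, n = 12) and 9.26 ± 1.73 CPM in P200-CTR-PBS (SD, n = 7).

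Smaller age differences passed the adjusted p but not the required size. In CTR these were *Cd83* (0.90, SE 0.20, edgeR adjusted p = 0.000327), *Cd86* (0.67, SE 0.17, edgeR adjusted p = 0.000916) and *Icosl* (0.60, SE 0.24, edgeR adjusted p = 0.0398), and in ELS *Icosl* (0.93, SE 0.25, edgeR adjusted p = 0.00181) and *Cd83* (0.62, SE 0.21, edgeR adjusted p = 0.0153). For *Cd86* in ELS the value was 0.27 (edgeR adjusted p = 0.208) with all mice and 0.51 (edgeR adjusted p = 7.62e-05) without P9_19.2_ELS, so that this 1 library decided whether the adjusted p passed. *Cd86* at P9 ran from 443 to 567 CPM in CTR (median 507) and from 336 to 1697 CPM in ELS (median 539), where P9_19.2_ELS gave the highest value and the next had 627 CPM. *Icosl* in the same mouse had the lowest value, 7.85 CPM, against 29.2 to 95.7 CPM in the other 12 P9-ELS mice. *Cd83* had 252 to 413 CPM in P9-CTR (median 293) and 204 to 493.25 CPM in P9-ELS (median 287). *Tnfsf9* had 1.09 to 3.23 CPM and 0 to 4.601 CPM in these groups, *Cd40* 0 to 0.931 and 0 to 0.939 CPM, and *Tnfrsf9* 0 to 0.0911 and 0 to 0.354 CPM, and each of these ranges overlapped that of the adult PBS mice. The difference between the age effects of ELS and CTR was called for 0 of 8 genes, against 0.0299% of all tested genes; *Tnfrsf9* had the value farthest from 0, at -2.39 (95% interval -5.16 to 0.37, edgeR adjusted p = 0.575).

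Markers of other cell types and the partner genes also differed with age. Of all tested genes 18.5% were lower at P200 in CTR and 17.5% in ELS, against 7.98% and 8.68% higher. All 7 markers of border-associated macrophages were lower at P200 in CTR and 5 of 7 in ELS, and their CTR sum was 551 to 921 CPM in P9-CTR against 2.84 to 10.6 CPM in P200-CTR-PBS. All 6 neuronal markers were lower in CTR and 5 of 6 in ELS, with a CTR sum of 69.5 to 186 CPM at P9 and 2.49 to 11.9 CPM at P200. Of 3 tested T cell partners of the ligands, *Cd28* (414 reads over the 12 P9-CTR mice and 1 over the 7 P200-CTR-PBS mice) and *Icos* (-3.93, SE 0.74) were lower at P200 in CTR, *Pdcd1* was higher (2.60, SE 0.41), and *Cd40lg* had no count in any mouse. Among the other B7 relatives, *Cd200* was lower (2142 reads in P9-CTR and 4 in P200-CTR-PBS) and *Vsir*, an inhibitory receptor known as VISTA, was higher (1.51, SE 0.17), 1 higher and 3 lower of 9 tested in CTR and 1 higher and 1 lower in ELS. In the costimulatory TNF superfamily list 4 of 8 were higher and 1 lower in CTR, and 3 higher and 0 lower in ELS, with *Tnfsf8*, the CD30 ligand, at 6.29 (SE 0.92, and 8.38 without P9_58.2_CTR) and *Tnfsf13b*, the B cell factor BAFF, at 4.16 (SE 0.29). Of the list of CD86 turnover 3 of 6 were higher and 1 lower in either condition. The MHC class II genes *H2-Aa* and *H2-Eb1* were among those higher in CTR, at 5.75 (SE 0.93) and 3.37 (SE 0.75), and at 4.47 and 2.30 without P200_1.1_CTR_PBS, which had 25.8 and 14.7 CPM against at most 6.45 and 3.85 CPM in the other 6 mice. *H2-Aa* was at 6.92 without P9_51.3_CTR. Of CD40 and 4-1BB signalling 4 of 14 were higher in CTR and 3 in ELS, among them *Traf5* (1.39 in CTR, SE 0.12). *Traf1*, called in CTR (2.43, SE 1.03, edgeR adjusted p = 0.0492), kept its call in 24 of 38 fits that each left out 1 mouse, with 1.36 without P200_5.2_CTR_PBS and 3.59 without P9_58.2_CTR. LPS response genes gave 3 of 8 higher in CTR, and 2 higher and 2 lower in ELS, with *Il6* at 5.17 in CTR (SE 0.57). *Acod1*, another of the 3 in CTR, rested on P200_1.1_CTR_PBS, with 2.70 CPM there and at most 0.0713 CPM in the other 6 mice: its value was 3.51 (SE 1.09) with all mice and -0.20 (edgeR adjusted p = 0.898) without it. Immediate early genes gave 5 of 10 higher in CTR and 7 of 10 in ELS, with *Hspa1a* at 3.39 (SE 0.76) and *Egr1* at 1.73 (SE 0.34) in CTR. The part of the change in cell makeup in the values of the 9 genes was not tested.

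Comparing ELS with CTR mice of the same age and injection asked whether the stress itself moved these genes. None of the 8 tested genes was called by edgeR at P9 (against 0% of all tested genes, 914 of which had an unadjusted p under 0.05), at P200 after PBS (against 0.156%) or at P200 after LPS (against 0%, 798 with an unadjusted p under 0.05). By DESeq2, 0, 153 and 2 of all tested genes were called in these comparisons, and by the edgeR likelihood-ratio test 1, 191 and 10, with 0 of the 8 genes in any. The groups overlapped for every gene in all 3 comparisons.

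At P9, *Tnfrsf9* was the only one of the 8 genes with an unadjusted p under 0.05 (edgeR, unadjusted p = 0.0218, adjusted p = 0.897), on 4 reads in 2 of 12 P9-CTR mice and 24 reads in 6 of 13 P9-ELS mice. After PBS *Cd83* gave a log2 difference of -0.23 (95% interval -0.70 to 0.25), and *Cd86* gave -0.14 (95% interval -0.53 to 0.25). After LPS the log2 differences were 0.79 for *Tnfsf9* (95% interval -0.05 to 1.63), 0.64 for *Cd40* (95% interval -0.89 to 2.16), 0.54 for *Cd274* (95% interval -0.72 to 1.79) and 0.41 for *Cd83* (95% interval -0.09 to 0.91). Without P200_20.1_ELS_LPS, those of *Tnfsf9* and *Cd83* were 0.03 and 0.08. Differences of 1 on the log2 scale therefore lie outside the intervals for *Cd80*, *Cd86*, *Icosl* and *Cd83* in all 3 comparisons, and inside at least 1 interval for *Cd40*, *Tnfrsf9*, *Tnfsf9* and *Cd274*. Per the study's methods, whole litters were assigned to ELS or CTR, and the 13 P9-ELS mice carry only the nest numbers 9, 19, 53 and 55. These intervals take each mouse as a unit, so that they measure the spread between these mice and not between litters.

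**Figure D5:**
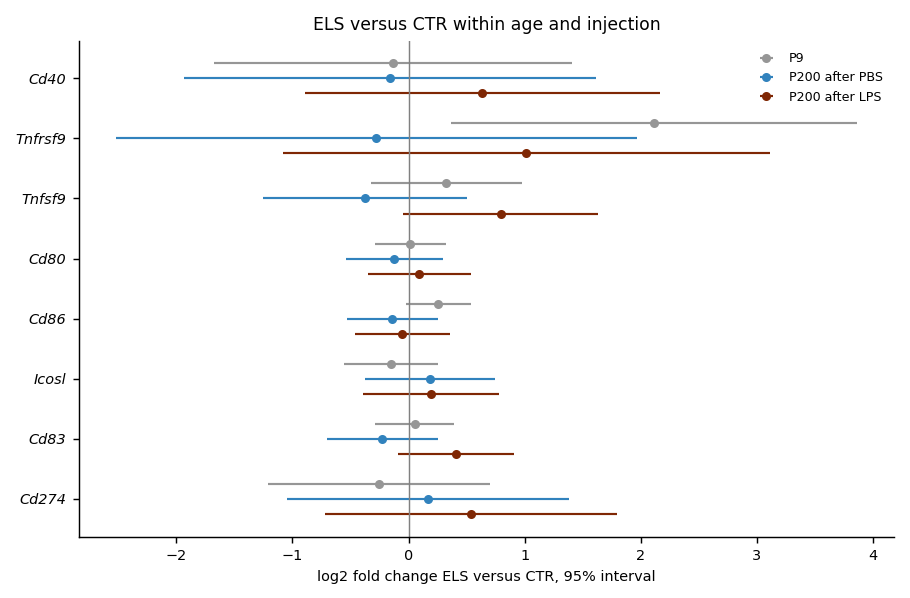
Log2 fold changes of ELS versus CTR for the 8 tested genes with 95% intervals, at P9 (grey), at P200 after PBS (blue) and at P200 after LPS (brown). All intervals span 0 except that of *Tnfrsf9* at P9 (2.11, on 4 and 24 reads), and those of *Cd80*, *Cd86*, *Icosl* and *Cd83* stay within 1 in size.

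Across the 6 groups, the 2 LPS groups had the highest means for 8 of the 9 genes, all but *Pdcd1lg2*, and the order below them separated few neighbours. For *Cd40*, *Cd83*, *Tnfsf9* and *Tnfrsf9* only the step from P200-CTR-LPS to P200-CTR-PBS exceeded the larger SD. For *Cd274* and *Icosl* the step from P200-CTR-LPS to P200-ELS-PBS and the step from P200-CTR-PBS to P9-CTR did so. For *Cd80* only the step from the adult groups to P9 exceeded the larger SD, while *Cd86* had none among neighbours, with group means from 501 ± 33.8 CPM in P9-CTR (SD, n = 12) to 937 ± 121 CPM in P200-CTR-LPS (SD, n = 7).

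The genes most like each of the 8 were sought by Pearson's r of log2 CPM over the 50 mice among 11047 genes, a description in which mice of 1 group share treatment and age. *Cd83* was most like *Il1a* (r = 0.978) and *Gpr84* (r = 0.977), and *Tnfsf9* was most like its antisense neighbour *Gm11110* (r = 0.967), then *Eif1a* (r = 0.962) and *Map3k8* (r = 0.957). *Cd40* was closest to *Gm47079* (r = 0.925), *Gpr84* (r = 0.922) and *Pde4b* (r = 0.922), *Icosl* to *Myd88* (r = 0.949), *Ncf1* (r = 0.944) and *Slc2a1* (r = 0.942), and *Cd274* to *Tgif1* (r = 0.884). *Cd86* was closest to *Clec5a* (r = 0.951), *C1galt1c1* (r = 0.944) and *Ms4a6d* (r = 0.942), *Cd80* to *Lmbrd1* (r = 0.903), *Tspan13* (r = 0.901) and *Igtp* (r = 0.899), and *Tnfrsf9* to *Bach1* (r = 0.816).

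Once the group means were taken out, other neighbours appeared for most of them. *Cd83* was then most like *Ccl3* (r = 0.870), *Adora3* (r = 0.801) and *Cd14* (r = 0.792), *Icosl* most like *Copg1* (r = 0.906), *Stat3* (r = 0.885) and *Icam1* (r = 0.869), and *Cd40* most like *Cxcl10* (r = 0.607). *Clec5a* stayed among the 3 closest to *Cd86* (r = 0.894), after *Ywhae* (r = 0.898) and *Rmi1* (r = 0.894). *Tnfsf9* was most like *Bcl2a1d* (r = 0.771), *Cd274* like *Crtc2* (r = 0.770), *Cd80* like *Lrrc58* (r = 0.699) and *Tnfrsf9* like *Fnbp1l* (r = 0.606). All these r include the libraries that stood apart, P9_19.2_ELS, P9_19.3_ELS and P200_1.1_CTR_PBS. In P9_19.2_ELS *Cd86* was 1697 CPM and *Icosl* 7.85 CPM, and P200_1.1_CTR_PBS had no *Cd274* read. How far the r values rest on these mice was not tested.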

How the data were processed

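Per the study's methods, the authors sorted live CD11b+ CD45-intermediate cells, prepared poly-A low-input libraries, demultiplexed with bcl2fastq 2.20, trimmed with cutadapt 2.10, aligned with STAR to GRCm39 and deposited raw counts of uniquely mapped exonic reads per gene from HTSeq 0.11.0 (versions per the submitters' processing notes); the annotation release and strand setting are not given in the sources used here. The 50 tables hold 53700 genes. Here, genes with at least 1 CPM in at least 3 mice (16696) were fitted in edgeR 4.0.16 (R 4.3.3; TMM, quasi-likelihood test, 6 group means over 50 mice, Benjamini-Hochberg over all tested genes; called: adjusted p under 0.05 and log2 fold change over 1 in size). The SE of edgeR values is the size of the log2 fold change divided by the square root of the quasi-likelihood F statistic. Intervals of 95% used this SE and a normal approximation. Log2 CPM used a prior count of 2. Exon lengths and positions came from GENCODE M39 (GRCm39). The replicate names carry a nest number, whose meaning the labels do not define; where nothing says that mice of 1 nest are independent, p-values measure the spread between these mice. The 9 genes and the gene lists were chosen with earlier results of these data known, and the correlations in LPS mice, the counts without genes tested only through LPS mice and the leave-one-out values of listed genes were added after the values were seen. Up to 4 called genes a list with the largest LPS change in CTR and up to 2 with the largest age change were named; *Ccr7*, *Zbtb46*, *Gm11110*, *Gm36043*, *Plgrkt*, *Timmdc1*, *Pdcd1* and the marker genes printed were named after their values were seen. Depth sets the precision: at 5152838 to 42231258 counts, counting error is small for *Cd83* and *Cd86* and large for *Tnfrsf9* and *Pdcd1lg2*. The fit was checked on simulated counts. Alternatives were DESeq2 1.42.0, limma 3.58.1, other filters, scalings and subsets of mice; permutations ran in scipy 1.17.1 (100000 draws).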

Additional observations from a re-analysis of the deposited data

Results flagged for a closer look

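Among 35 groups of 5 to 7 adult mice checked for the 9 genes, 4 held a mouse far from its group by Dixon's criterion. For normally spread values chance alone flags about 1 of 20 groups. That share does not apply to *Pdcd1lg2*, where most mice had 0 and a lone read among values of 0 is always flagged. *Cd40* was 212 CPM in P200_20.1_ELS_LPS, and the next mouse had 71.5 CPM. *Cd86* was 1177 CPM in P200_1.1_CTR_PBS, and the next had 772 CPM; this library had 12854 genes detected and no *Cd274* read. *Pdcd1lg2* was 0.0450 CPM (1 read) in P200_15.2_CTR_LPS and 0 in the other 6 mice of its group. *Pdcd1lg2* was 0.603 CPM (15 reads) in P200_17.1_ELS_PBS, and the next had 0.142 CPM.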

How the results depend on the processing

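Of 2951 values of the 8 genes in 72 gene and comparison pairs under all alternatives, 2929 kept their side of the call, 12 lost it, 10 gained it and 0 called values changed sign. The number of the genes called moved by over 1.5 times in the age comparisons only: without the fold change threshold it was 5 in CTR and 4 in ELS, and with nest as a random effect in limma-voom it was 1 in CTR, where *Cd274* was lost. Leaving out 1 mouse at a time gave 1 to 3 called genes for P200 versus P9 in ELS (1 without P200_20.2_ELS_PBS). *Tnfrsf9* after LPS in CTR was not called without the low-count filter, with the groups compared alone (adjusted p = 0.0663 by edgeR) or with the block, and was not tested with 1 CPM required in 12 mice. *Icosl* for P200 versus P9 in ELS was called under limma-voom (1.13) and without P9_9.1_ELS, P9_9.2_ELS or P9_19.1_ELS (1.02 to 1.05). *Tnfrsf9* for P200 versus P9 in CTR was called without P9_15.1_CTR (3.02). *Pdcd1lg2*, outside these 8 genes, was called for P200 versus P9 in ELS without the low-count filter (4.49, edgeR adjusted p = 0.00215). The cause of these changes was not tested. The nest numbers did not pair the mice: deviations of PBS and LPS mice of the same number had r of -0.04 to 0.08 in 10 nests, none over 0.1. With the nest number as a replicate block, 5 genes were called after LPS in CTR, 6 in ELS and 0 in the interaction, and *Tnfrsf9* in CTR was 2.86 (edgeR adjusted p = 0.343), the only call that the block changed. Over all tested genes, ELS versus CTR after PBS gave 26 calls, but 191 by the edgeR likelihood-ratio test, 153 by DESeq2, 6 with DESeq2 size factors, 2 without the filter and 0 with the groups compared alone or under limma-voom. The age by ELS test gave 5 calls, but 29 by likelihood ratio, 20 by DESeq2, 3 with the stricter filter and 0 with the groups alone, without 3 mice, or under limma-voom. Without the fold change threshold, LPS gave 2493 calls in CTR and 2059 in ELS instead of 1606 and 1313, and age 7356 and 7045 instead of 4416 and 4368. The LPS by ELS test gave 0, but 66 by likelihood ratio and 11 by DESeq2, and ELS versus CTR after LPS gave 0, but 10 and 2. Depth limits *Tnfrsf9* and *Pdcd1lg2*, whose libraries held at most 47 and 15 reads.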
